A study of Mus musculus with 12 samples.

Results

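The enzymes that make cholesterol and fatty acids were followed in salivary tumors with 3 p53 genotypes. Of 34 genes listed for this set, 32 were found by symbol among the probe sets that the platform annotation gives a single symbol, out of 12393 such genes in all, and these 32 genes are read by 64 probe sets. A probe set is the group of oligonucleotides by which the array measures 1 transcript or 1 end of it. Acat2 and Insig1 were not found. All tumors arose in adult mice that carry the MMTV-ras transgene, in which the mammary tumor virus promoter drives an activated Hras. The background was a mix of BALB/c and C57BL/6, and the tumors share the oncogene and differ in the p53 locus. MT tumors came from p53R172H/R172H mice, which are homozygous for a missense mutation that disrupts the structure of p53, KO tumors from p53-/- mice and WT tumors from p53+/+ mice, with 4 tumors and 4 arrays in each group. The mutant allele was brought in from C57BL/6 animals, and the MT mice came from a colony that was then bred within itself. Colony and strain mix can therefore differ along with genotype in both comparisons with MT tumors, and their part was not tested. Tumors were chosen by weight and by a high content of tumor in the sections, and RNA came from whole frozen sections. The study set p53 loss beside the mutant protein to look for gain of function, and its authors name the lipogenic factor SREBP among possible partners of mutant p53. In the study's cohorts salivary tumors appeared earlier in p53-/- and p53R172H/R172H mice than in p53+/+ mice. Age can therefore differ along with genotype, and the sex and age of the mice behind single arrays were not analysed here.

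Cholesterol is built from acetyl-CoA. The mevalonate steps join acetyl-CoA units into mevalonate and then into isoprenoids such as farnesyl pyrophosphate, which also serve to prenylate Ras-family proteins, and the squalene and sterol steps close the rings and trim the product. Fatty acid synthesis starts from the same acetyl-CoA and uses NADPH, after which elongases lengthen the chains and desaturases place double bonds. Both branches are controlled by SREBP transcription factors, the products of Srebf1 and Srebf2, which Scap escorts out of the endoplasmic reticulum when sterol is scarce.

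The promoter windows below belong to Mvk, the only member called in KO minus WT, and Idi1, the mevalonate gene with the largest difference in that comparison. The windows of Hmgcs1 and Fads2 follow. Hmgcs1 had the only match to the sterol element searched for among members with a window, and Fads2 the lowest adjusted p in MT minus WT. Each window runs 5′ to 3′ from 250 bases before to 50 bases after a RefSeq start site of the GRCm38.p6 assembly. Capitals mark matches on either strand to TCACNCCAC (a sterol element), CCAAT (bound by NF-Y) or GGGCGG (bound by Sp1). The windows lie at chr5:114444019-114444318 on the + strand (Mvk), chr13:8885356-8885655 on the + strand (Idi1), chr13:119690101-119690400 on the + strand (Hmgcs1) and chr19:10101454-10101753 on the - strand (Fads2).
Mvk: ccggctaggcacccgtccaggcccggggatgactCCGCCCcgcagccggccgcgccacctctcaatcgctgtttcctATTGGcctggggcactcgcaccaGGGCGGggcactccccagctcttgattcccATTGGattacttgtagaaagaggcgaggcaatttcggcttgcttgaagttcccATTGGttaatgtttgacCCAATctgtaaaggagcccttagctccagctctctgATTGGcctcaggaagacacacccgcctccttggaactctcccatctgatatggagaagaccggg
Idi1: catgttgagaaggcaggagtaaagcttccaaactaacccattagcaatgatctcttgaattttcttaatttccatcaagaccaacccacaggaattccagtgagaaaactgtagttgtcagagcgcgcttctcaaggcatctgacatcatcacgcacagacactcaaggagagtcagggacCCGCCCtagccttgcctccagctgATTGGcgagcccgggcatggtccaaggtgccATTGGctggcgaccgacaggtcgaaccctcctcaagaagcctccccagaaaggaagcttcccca
Hmgcs1: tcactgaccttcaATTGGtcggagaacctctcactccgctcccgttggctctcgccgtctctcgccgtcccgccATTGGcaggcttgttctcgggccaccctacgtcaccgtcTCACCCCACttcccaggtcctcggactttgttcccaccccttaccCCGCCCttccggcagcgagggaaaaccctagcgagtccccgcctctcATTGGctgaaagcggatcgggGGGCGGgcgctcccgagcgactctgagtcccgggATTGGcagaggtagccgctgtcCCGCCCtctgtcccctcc
Fads2: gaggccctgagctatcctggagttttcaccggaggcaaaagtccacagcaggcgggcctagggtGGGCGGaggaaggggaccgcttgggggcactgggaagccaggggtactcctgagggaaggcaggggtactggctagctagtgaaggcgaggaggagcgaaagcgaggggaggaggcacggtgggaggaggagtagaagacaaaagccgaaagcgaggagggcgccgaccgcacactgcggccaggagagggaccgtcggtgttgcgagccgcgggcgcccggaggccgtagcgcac

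The Mvk window held 5 CCAAT matches, the Idi1 window 2, the Hmgcs1 window 4 and the Fads2 window 0. Windows were given for 25 of the 32 genes, and 21 of these (84.0%) held CCAAT against 41.1% of all 27025 genes with a window. All 5 mevalonate genes and all 8 squalene and sterol genes with a window held CCAAT, against 2 of 4 elongation and desaturation genes. GGGCGG was found in 20 of the 25 genes (80.0%, against 38.2% of all genes), the E-box CACGTG in 5 (20.0%, against 8.09%) and TCACNCCAC in Hmgcs1 alone (4.0%, against 1.44%). A match is a run of letters and not a measured binding site. The Mvk window shares 259 bases with that of Mmab, a cobalamin adenosyltransferase gene read in the opposite direction.

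Values are log2 RMA signals, so a difference of 1 is a doubling, and a level cannot be set against that of another probe set. Differences were fitted with limma over all 12 tumors and 22626 probe sets, and a probe set was called at an adjusted p under 0.05 (Benjamini-Hochberg over all probe sets). Trp53, named for 2 probe sets by the study's supplement, was 5.85 to 6.36 and 6.37 to 6.89 in KO tumors and at least 7.38 in every MT and WT tumor. MT4 read 7.88 and 8.18, within the WT ranges of 7.38 to 8.01 and 8.02 to 8.53. MT1, MT2 and MT3 read 8.80 to 9.03 and 9.13 to 9.29. The arrays of MT1, MT2 and MT3 were set apart by the poly-A controls, bacterial transcripts spiked into RNA, which averaged 10.38 to 10.56 there and 3.98 to 4.23 on the other 9 arrays, so MT differences of members are also given with a block for this split, which leaves MT4 alone against the other groups and is less precise. Signal for 18S ribosomal RNA also followed genotype in part, at 6.41 to 7.66 in MT, 7.36 to 8.03 in KO and 7.51 to 9.33 in WT tumors. Markers of salivary acini and demilunes had a mean over 10 of 12 listed genes of 9.17 to 10.03 in MT, 8.93 to 9.87 in KO and 10.70 to 11.77 in WT tumors, while all 8 epithelial genes had positive differences in KO minus WT (median 0.61) and MT minus WT (median 0.55). Adipocyte markers, from cells rich in these enzymes, had means over 7 of 10 listed genes of 5.48 to 5.83 in MT, 5.44 to 5.60 in KO and 5.60 to 6.0 in WT tumors. Of 7 measured genes of cycling cells, 6 were positive in KO minus WT (median 0.40), 5 in MT minus WT (median 0.17) and 0 in MT minus KO (median -0.24). Fibroblast genes averaged 7.59 to 8.62 in MT, 7.50 to 8.77 in KO and 6.85 to 9.20 in WT tumors. Immune and endothelial markers had mostly negative differences in KO minus WT, in 7 of 8 macrophage genes (median -0.58, C1qb and Cd68 called lower), 4 of 4 measured T cell genes (median -0.59, Cd4 called lower) and 5 of 5 endothelial genes (median -0.23, Pecam1 and Emcn called lower). With the block the calls of Cd68, Pecam1 and Emcn are lost (adjusted p = 0.0537, 0.0518 and 0.0529). The mean levels of these lists were 8.38 to 9.54 in MT, 8.56 to 9.23 in KO and 8.76 to 9.53 in WT tumors for macrophages, 6.09 to 6.21 in MT, 5.91 to 6.12 in KO and 6.17 to 7.52 in WT tumors for T cells, and 5.82 to 6.07 in MT, 5.42 to 5.95 in KO and 5.95 to 6.30 in WT tumors for endothelium. Negative differences in MT minus WT were found for 7 of 8 macrophage genes (median -0.27) and 3 of 4 T cell genes (median -0.46). The same held for 4 of 5 endothelial genes (median -0.16). C1qb was called lower in MT tumors as well, with a difference of -0.92 (limma, adjusted p = 0.0246). With the block, where MT4 alone is set against WT, it was -0.73 with no call. In bulk tumor RNA, fewer cells of a type and less RNA per cell cannot be told apart.

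Across the 64 probe sets, 1 was called lower in KO than in WT tumors and 0 were called higher, where 2.64% of all probe sets were called lower (597) and 1.94% higher (438). After each array was centred on its median, 846 probe sets were called lower and 396 higher, and 2 members lower. In MT minus WT 0 members were called in either direction, where 0.177% of all probe sets were called higher (40) and 0.19% lower (43), or 50 higher and 97 lower after centring and 59 and 83 after cyclic loess. In MT minus KO 0 members were called as well, where 0.00884% of all probe sets were called higher (2) and 0.0% lower (0). SAM, run on 2 groups at a time at a false discovery rate of 5%, called 2 members lower in KO minus WT (Mvk and Scd2), among 573 probe sets higher and 1037 lower on the whole array, 1 higher (Fads2) and 1 lower (Mvk) in MT minus WT, among 258 and 538, and 0 in MT minus KO, where it called 2 higher and 0 lower. The methods' t-test called 0 members in every comparison after adjustment at 5%, and only Mvk in KO minus WT at 10%, among 159 probe sets higher and 207 lower.

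At an unadjusted p under 0.05 (limma), 7 members were higher and 9 lower in KO minus WT (10.9% and 14.1%, against 10.5% and 13.5% of all probe sets), a share close to that of the whole array. The same count was 8 higher and 3 lower in MT minus WT (12.5% and 4.69%, against 8.97% and 10.4%) and 9 higher and 1 lower in MT minus KO (14.1% and 1.56%, against 5.01% and 4.57%). With the block for the poly-A split these counts were 1 higher and 4 lower in MT minus WT and 1 higher and 3 lower in MT minus KO, with MT4 as the only MT tumor behind them. Groups that did not overlap were found for 3 members higher and 7 lower in KO minus WT (background 6.1% and 8.37%), 4 higher and 3 lower in MT minus WT (4.44% and 6.44%) and 2 higher and 1 lower in MT minus KO (2.88% and 1.97%). With each gene at its brightest probe set (highest mean over the 12 tumors), the median difference of the 32 genes was 0.08 in KO minus WT, 0.07 in MT minus WT and 0.06 in MT minus KO, beside medians of -0.01, -0.01 and 0.02 over all 12393 genes. With the block for the poly-A split the members' medians were -0.07 in MT minus WT and -0.08 in MT minus KO. The genes did not share 1 direction, and they are described by their place in the pathway.

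**Figure D1:**
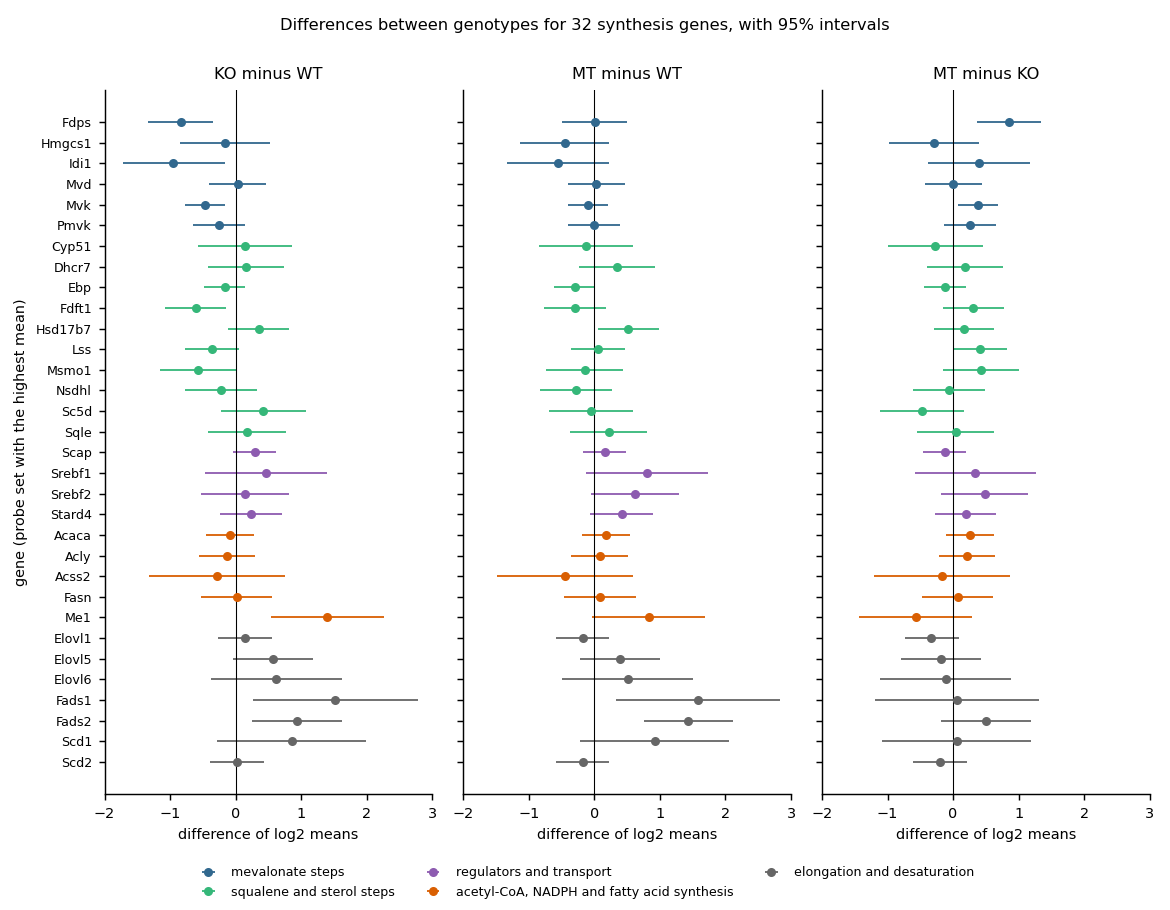
Difference of group means on the log2 scale (x axis) for the 32 genes, each at its brightest probe set (y axis), in KO minus WT, MT minus WT and MT minus KO; points are limma estimates, bars their 95% intervals and colors the place in the pathway. Fdps, Idi1 and Mvk lie below 0 in KO minus WT, and Me1, Fads1 and Fads2 above it.

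Of the 6 genes of the mevalonate steps, 5 had negative differences in KO minus WT, with a median of -0.37 and a range of -0.95 to 0.03, and Mvk alone was called. In MT minus WT the median was -0.05 and in MT minus KO 0.32, with 5 of 6 positive, and with the block these medians were -0.12 and 0.23. The mean centred level of the 6 genes was 0.40, -0.42, 0.08 and 0.07 in MT, -0.07, -0.28, -0.20 and -0.40 in KO and 0.36, -0.04, 0.60 and -0.09 in WT tumors, so that KO1 lay above WT4 and the groups overlapped.

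Mvk, mevalonate kinase, phosphorylates mevalonate. Its probe set 1430619_a_at read 7.32, 7.03, 7.21 and 7.25 in MT, 7.07, 6.96, 7.15 and 6.86 in KO and 7.56, 7.61, 7.72 and 7.39 in WT tumors. Every MT and every KO tumor lay below every WT tumor. The level fell to 0.679 of the WT level in KO tumors, a difference of -0.56 (SE 0.11, 95% interval -0.80 to -0.32, adjusted p = 0.0208), and MT minus WT was -0.37 (adjusted p = 0.124, and -0.32 with the block). The adjusted p for KO minus WT was 0.0512 without KO2, 0.0566 without WT1 and 0.0653 without WT3, so the call rests on each of these tumors, and it was 0.0552 in the fit of the 8 KO and WT tumors alone. The other Mvk probe set, 1418052_at, read 7.69, 7.34, 7.62 and 7.42 in MT, 7.17, 7.34, 7.10 and 6.93 in KO and 7.87, 7.55, 7.68 and 7.34 in WT tumors. Here KO minus WT was -0.47 (adjusted p = 0.0726) and MT minus WT -0.09 (-0.19 with the block), with KO2 and WT4 at the same value. Mmab, which shares most of the Mvk promoter window and was added after the values were seen, averaged 6.94 in MT, 6.70 in KO and 6.76 in WT tumors, with a KO minus WT of -0.05 (SE 0.16, adjusted p = 0.873) at its brightest probe set.

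Fdps, farnesyl pyrophosphate synthase, makes the isoprenoid that feeds both sterols and Ras prenylation. It read 10.02, 9.84, 10.14 and 9.88 in MT, 9.50, 8.99, 9.29 and 8.70 in KO and 10.17, 9.62, 10.51 and 9.57 in WT tumors. All KO tumors lay below all others, and MT and WT tumors overlapped. KO minus WT was -0.84 (SE 0.22, 95% interval -1.34 to -0.35, adjusted p = 0.0558), MT minus KO was 0.85 (SE 0.22, adjusted p = 0.276) and MT minus WT 0.01 (95% interval -0.49 to 0.50). With the block for the poly-A split, MT minus KO was 0.76, since MT4 alone read 9.88. KO minus WT passed the threshold after centring each array on its median (adjusted p = 0.044) and after cyclic loess (0.0455). It did not in the fit of the 8 KO and WT tumors alone (limma, adjusted p = 0.116). Leaving out 1 tumor at a time gave adjusted p-values from 0.0362 (without WT4) to 0.132 (without WT1). A second Fdps probe set read 3.49 to 4.10 across the 12 tumors, with a KO minus WT of -0.23 (adjusted p = 0.206).

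Idi1, isopentenyl diphosphate isomerase, stands between Mvk and Fdps. Its probe set 1451122_at read 9.45, 7.84, 8.60 and 8.91 in MT, 8.59, 8.19, 8.13 and 8.30 in KO and 9.56, 8.72, 10.01 and 8.71 in WT tumors. The KO tumors were below the WT tumors without overlap, while the MT tumors spanned both groups. KO minus WT was -0.95 (SE 0.35, adjusted p = 0.134) and MT minus WT -0.55 (SE 0.35, adjusted p = 0.411, and -0.34 with the block). At the second probe set KO minus WT was -0.65 (adjusted p = 0.441) and MT minus WT -0.89 (adjusted p = 0.337, and -0.07 with the block), and KO and WT tumors overlapped.

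The remaining mevalonate genes had no probe set called. Hmgcs1, which makes HMG-CoA, had KO minus WT differences of -0.52 to -0.13 and MT minus WT differences of -0.55 to -0.15 at its 4 probe sets, which were -0.26 to 0.02 with the block. Pmvk, phosphomevalonate kinase, had a KO minus WT of -0.26 and an MT minus WT of -0.00 (-0.08 with the block), and Mvd, the decarboxylase that follows it, 0.03 in both at the brightest probe set (-0.15 in MT minus WT with the block). The 95% intervals of 3 of the 6 genes, Mvd, Mvk and Pmvk, lay within 1 log2 unit of 0 in all 3 comparisons. KO tumors, which are lower here, also read lower than WT tumors in the acinar markers and in the called macrophage, T cell and endothelial genes. MT tumors read lower than WT tumors in the acinar markers too (median -2.28 in MT minus WT, 8 of 10 genes negative), and in C1qb. In 18S signal both KO and MT tumors were below WT1, WT2 and WT3. The part of these features in the Mvk, Fdps and Idi1 differences was not tested.

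**Figure D2:**
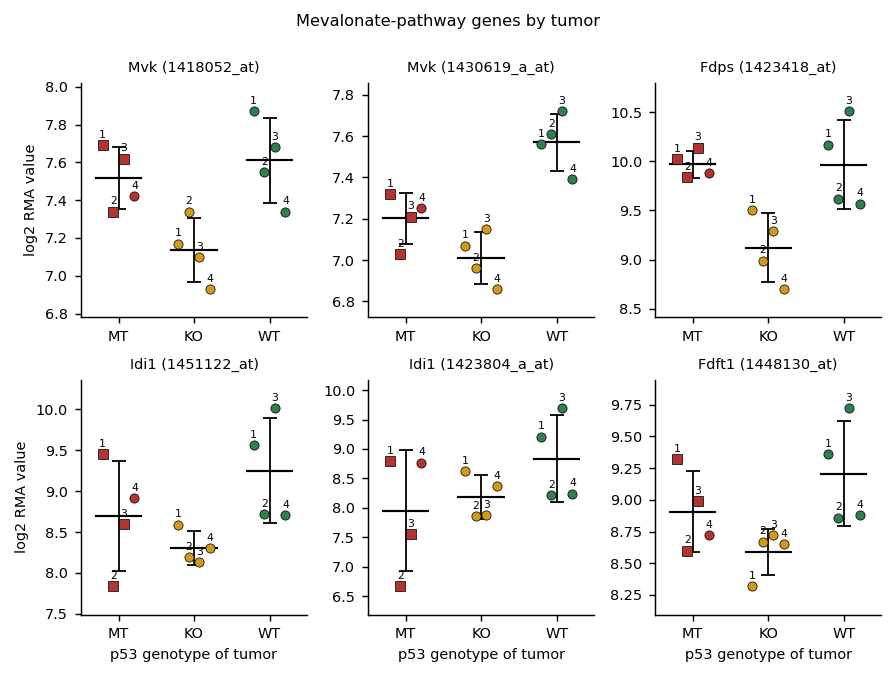
Log2 RMA value (y axis) of Mvk, Fdps, Idi1 and Fdft1 probe sets in MT, KO and WT tumors (x axis), 1 numbered point per tumor, with bars for the means and whiskers for the SD (n = 4); squares are MT1, MT2 and MT3, the arrays set apart by the poly-A controls. At Fdps the KO tumors (8.70 to 9.50) lie below all MT and WT tumors, and at Mvk 1430619_a_at both MT and KO tumors lie below WT.

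In the squalene and sterol steps 5 of 10 genes had positive and 5 negative differences in KO minus WT, with a median of -0.02. Fdft1, squalene synthase, the first enzyme committed to sterols, read 9.32, 8.60, 8.99 and 8.72 in MT, 8.32, 8.67, 8.72 and 8.65 in KO and 9.36, 8.86, 9.72 and 8.88 in WT tumors at its brightest probe set. All KO tumors were below all WT tumors, with KO minus WT at -0.61 (SE 0.21, adjusted p = 0.114) and MT minus WT at -0.30 (adjusted p = 0.461, and -0.49 with the block). At 1438322_x_at it was the MT tumors (7.52 to 8.35) that lay below the WT tumors (8.44 to 9.29), with MT minus WT at -0.76 (adjusted p = 0.113, and -0.44 with the block) and KO minus WT at -0.44 (adjusted p = 0.235).

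Sc5d, the sterol desaturase, had the largest MT minus KO difference of the sterol steps at the brightest probe sets, -0.47 (SE 0.29, adjusted p = 0.664, and -0.44 with the block), with 8.78, 7.53, 8.03 and 8.16 in MT, 8.69, 8.29, 8.05 and 9.35 in KO and 8.14, 8.07, 8.39 and 8.08 in WT tumors. KO4 stood highest, and that array also had the largest 3' minus 5' gap of the actin controls (1.05, against 0.17 to 0.58 on the others). Hsd17b7, Ebp and Msmo1 are given because their groups or p stood out after the values were seen. Hsd17b7, a sterol ketoreductase, had MT values of 7.29 to 7.75 and WT values of 6.58 to 7.22, a difference of 0.51 (adjusted p = 0.219, and 0.37 with the block), and 0.02 at its other probe set (0.35 with the block). Ebp, the sterol isomerase, had MT values of 8.32 to 8.75 below WT values of 8.81 to 9.02 (difference -0.30, adjusted p = 0.276, and -0.19 with the block). Msmo1, which removes methyl groups from the sterol ring, had a KO minus WT of -0.57 (adjusted p = 0.223) with overlapping groups. Cyp51, Dhcr7, Lss, Nsdhl and Sqle had differences of -0.36 to 0.41 in the 3 comparisons at their brightest probe sets, none called, and of -0.57 to 0.26 in the MT comparisons with the block.

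The 4 regulators and transport genes all had positive differences in both comparisons with WT, with medians of 0.26 in KO minus WT and 0.52 in MT minus WT, the second -0.12 with the block. None was called, and for Srebf1 and Srebf2 the MT means rested on MT1, MT2 and MT3. Srebf1, which encodes the SREBP that mainly drives fatty acid genes, read 11.01, 11.52, 11.33 and 9.41 in MT, 9.88, 11.01, 10.52 and 10.48 in KO and 9.43, 10.20, 10.40 and 10.00 in WT tumors. MT1, MT2 and MT3 were at or above the highest KO tumor and MT4 was the lowest of all 12. MT minus WT was 0.81 (SE 0.42, adjusted p = 0.318), -0.60 with the block for the poly-A split, and 1.28 (adjusted p = 0.0392) without MT4.

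Srebf2, which encodes the SREBP that mainly drives sterol genes, read 9.88, 9.69, 9.64 and 8.45 in MT, 8.85, 9.02, 8.76 and 9.09 in KO and 8.82, 8.96, 9.25 and 8.14 in WT tumors. The same 3 MT tumors stood above every KO and WT tumor, and MT4 below all but WT4. MT minus WT was 0.62 (SE 0.31, adjusted p = 0.291), -0.35 with the block and 0.94 (adjusted p = 0.0473) without MT4, and at the second Srebf2 probe set it was 0.21 (-0.53 with the block). Because high poly-A controls and the high SREBP values fall on the same 3 of 4 MT arrays, genotype and array set cannot be told apart there. Over the 64 member probe sets MT4 was the lowest MT tumor at 22 (34.4%) and the highest at 10 (15.6%), against 35.4% and 27.7% of all probe sets.

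Scap, the sterol sensor that escorts SREBP, read 9.61, 9.04, 9.80 and 9.40 in MT, 9.81, 9.50, 9.54 and 9.51 in KO and 9.27, 9.30, 9.40 and 9.24 in WT tumors. All KO tumors were above all WT tumors, with a KO minus WT of 0.29 (SE 0.15, adjusted p = 0.270). Stard4, a carrier of cholesterol in the cytosol, had MT minus WT differences of 0.42 and 0.47 at its 2 probe sets (adjusted p = 0.314 and 0.458), which were 0.50 and 0.58 with the block.

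**Figure D3:**
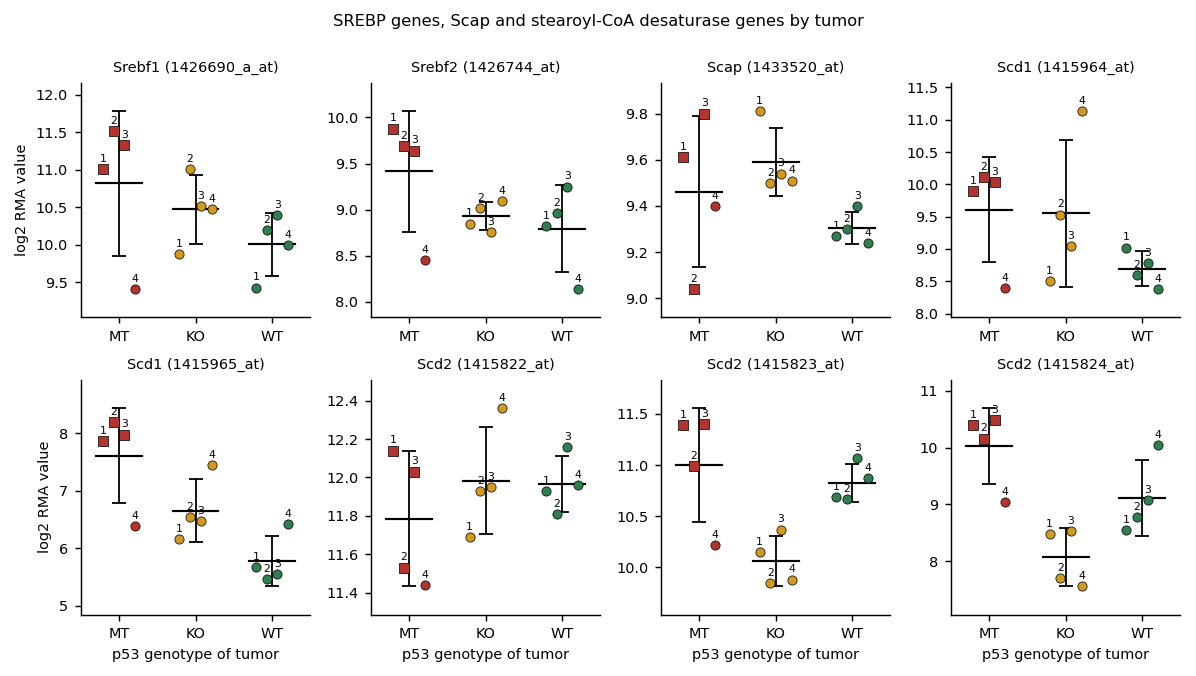
Log2 RMA value (y axis) of Srebf1, Srebf2, Scap and the Scd1 and Scd2 probe sets in MT, KO and WT tumors (x axis), 1 numbered point per tumor, with bars for the means and whiskers for the SD (n = 4); squares are MT1, MT2 and MT3. At Srebf1 and Srebf2 these 3 tumors (11.01 to 11.52 and 9.64 to 9.88) stand apart from MT4 (9.41 and 8.45).

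Among the genes that supply acetyl-CoA and NADPH and build palmitate, Me1 stood apart. Me1, the cytosolic malic enzyme and a source of NADPH, read 10.34, 9.48, 9.75 and 9.97 in MT, 11.01, 10.33, 10.21 and 10.26 in KO and 8.23, 10.34, 9.09 and 8.56 in WT tumors. WT2 lay inside the range of the KO tumors and the other WT tumors below every MT and KO tumor. KO minus WT was 1.40, a ratio of 2.64 (SE 0.39, 95% interval 0.54 to 2.26, adjusted p = 0.0656), and 1.83 (adjusted p = 0.00999) without WT2. Leaving out any other single tumor gave no call, with a difference of 1.12 (limma, adjusted p = 0.151) without WT1. The second probe set gave 1.41 for KO minus WT (adjusted p = 0.104) and 1.47 for MT minus WT (adjusted p = 0.146, and 1.32 with the block), against 0.83 (adjusted p = 0.275, and 0.91 with the block) for MT minus WT at the first.

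Fasn, fatty acid synthase, had overlapping groups, with 9.86, 8.97, 9.12 and 8.58 in MT, 8.87, 9.41, 9.18 and 8.80 in KO and 8.85, 9.01, 9.41 and 8.92 in WT tumors. Its KO minus WT was 0.02 (95% interval -0.53 to 0.56) and its MT minus WT 0.09 (95% interval -0.46 to 0.63, and -0.47 with the block). Acaca, acetyl-CoA carboxylase, had a KO minus WT of -0.08 and an MT minus WT of 0.18 (0.10 with the block). Acly, which splits citrate into acetyl-CoA, had 5 probe sets, of which 1425326_at gave a KO minus WT of -0.55 (adjusted p = 0.147) with KO tumors at 8.23 to 8.90 and WT tumors at 8.94 to 9.56, while the brightest gave -0.13. Acss2, which makes acetyl-CoA from acetate, read 5.96, 6.50, 7.14 and 8.62 in MT, 7.78, 7.58, 6.77 and 6.79 in KO and 7.56, 7.87, 7.33 and 7.28 in WT tumors. Its MT tumors spanned more than both other groups, with MT4 above all KO and WT tumors and MT1 and MT2 below them, and MT minus WT was -0.45 (adjusted p = 0.631) and 1.11 with the block.

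All 7 elongation and desaturation genes had positive differences in KO minus WT and 5 of 7 in MT minus WT at their brightest probe sets, with medians of 0.62 and 0.51, and 3 of 7 in MT minus KO, with a median of -0.11. With the block the medians were 0.26 in MT minus WT and -0.54 in MT minus KO. No probe set of these genes was called. The mean centred level of the 7 genes was 0.72, 0.05, 0.32 and -0.28 in MT, 0.21, 0.28, -0.04 and 0.48 in KO and -0.12, -0.80, -0.15 and -0.67 in WT tumors, so that every KO tumor was above every WT tumor and MT4 lay among the WT tumors.

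**Figure D4:**
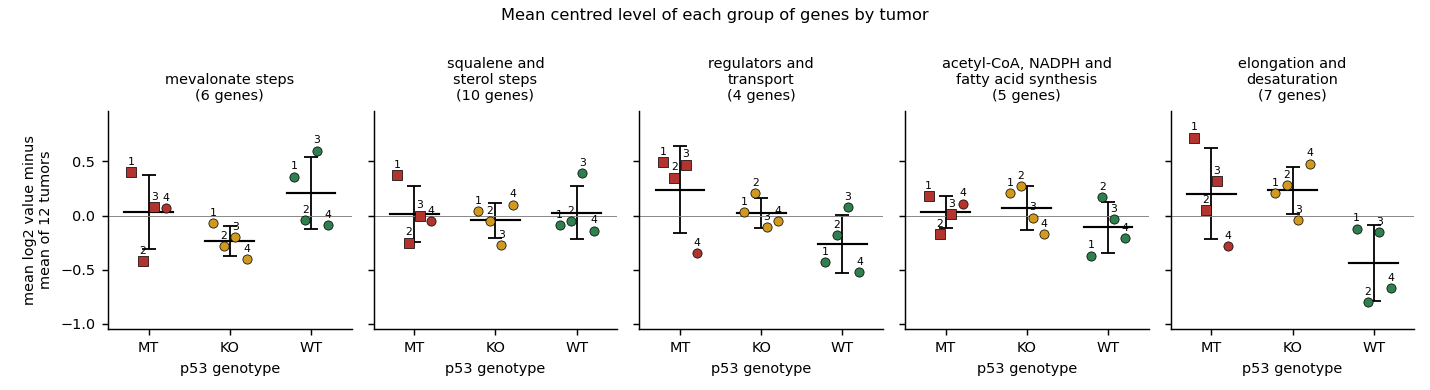
Mean over the genes of each place in the pathway of the log2 value minus that gene's mean over 12 tumors (y axis) in MT, KO and WT tumors (x axis), 1 numbered point per tumor, with bars for the means and whiskers for the SD (n = 4); squares are MT1, MT2 and MT3. The elongation and desaturation genes average 0.20 in MT, 0.23 in KO and -0.44 in WT tumors, and the mevalonate genes 0.03, -0.24 and 0.21.

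Fads2 and Fads1 encode the desaturases that make long polyunsaturated fatty acids, and the genes lie side by side on chromosome 19. Fads2 read 8.73, 8.15, 8.05 and 7.44 in MT, 8.29, 7.65, 7.08 and 7.36 in KO and 7.24, 6.43, 6.62 and 6.35 in WT tumors at 1419031_at. All MT tumors were above all WT tumors, with MT minus WT at 1.43, a ratio of 2.70 (SE 0.31, 95% interval 0.75 to 2.12, adjusted p = 0.0653). At 1449325_at the values were 8.61, 8.36, 8.21 and 7.61 in MT, 7.93, 7.33, 7.12 and 6.30 in KO and 6.92, 6.54, 6.55 and 6.64 in WT tumors. Again the MT tumors did not overlap with the WT tumors, and MT minus WT was 1.53, a ratio of 2.90 (SE 0.31, adjusted p = 0.0582).

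Without MT4 these adjusted p-values were 0.0208 and 0.0182, while with the block, where MT4 alone is set against WT, the differences were 0.78 and 0.94 with no call. KO minus WT was 0.93 (adjusted p = 0.104) and 0.51 (adjusted p = 0.336), and MT minus KO 0.50 (adjusted p = 0.669, and -0.15 with the block) and 1.02 (adjusted p = 0.319, and 0.43 with the block).

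Fads1 read 9.49, 7.52, 7.37 and 6.89 in MT, 8.55, 7.88, 7.27 and 7.34 in KO and 7.18, 5.35, 6.78 and 5.63 in WT tumors. KO tumors were above WT tumors without overlap and MT4 was below WT1, and the spread within groups was wide (SD 1.15 in MT, 0.59 in KO and 0.88 in WT). KO minus WT was 1.52 (SE 0.57, adjusted p = 0.136) and MT minus WT 1.58 (SE 0.57, adjusted p = 0.176, and 0.66 with the block). The 440 measured genes of chromosome 19 outside the set had median differences of -0.08 in KO minus WT and -0.10 in MT minus WT. Of the genes next to this cluster, Rab3il1 and Fen1 had MT minus WT differences of -0.24 and -0.19, and Fads3 0.70 (adjusted p = 0.323).

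**Figure D5:**
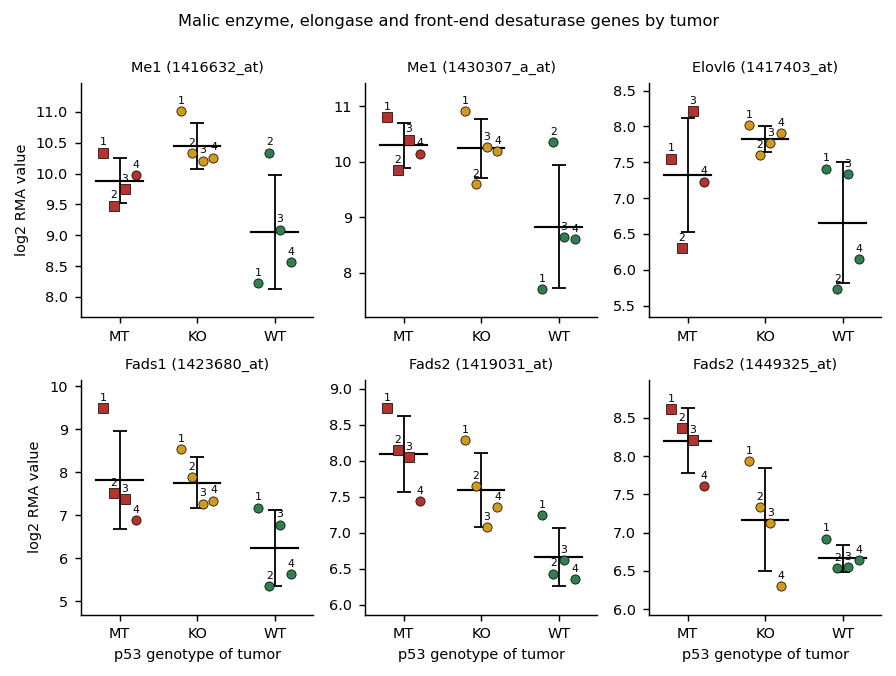
Log2 RMA value (y axis) of Me1, Elovl6, Fads1 and Fads2 probe sets in MT, KO and WT tumors (x axis), 1 numbered point per tumor, with bars for the means and whiskers for the SD (n = 4); squares are MT1, MT2 and MT3. At both Fads2 probe sets the MT tumors (7.44 to 8.73 and 7.61 to 8.61) lie above all WT tumors, and at Me1 WT2 lies among the KO tumors.

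Elovl6 and Elovl5, elongases of saturated and of polyunsaturated chains, and the Scd genes are given although they fall outside the rule for named genes, since their values stood out. Elovl6 at 1417403_at read 7.55, 6.30, 8.21 and 7.23 in MT, 8.02, 7.60, 7.77 and 7.91 in KO and 7.41, 5.73, 7.33 and 6.15 in WT tumors. KO tumors were above WT tumors without overlap (KO minus WT 1.17, SE 0.43, adjusted p = 0.128), and at the brighter probe set, where they overlapped, the difference was 0.62 (adjusted p = 0.438). Elovl5 had KO minus WT differences of 0.57 and 0.78 (adjusted p = 0.236 and 0.147) at its 2 probe sets, and KO1 was the lowest KO tumor at both. Its MT minus WT differences were 0.39 and 0.71 (adjusted p = 0.458 and 0.234), and 0.27 and 0.37 with the block. At 1437211_x_at all MT tumors (9.52 to 10.61) lay above all WT tumors (9.05 to 9.50), while KO and WT tumors overlapped. For Elovl1, an elongase of very long chains, MT minus KO was 0.42 at 1 probe set and -0.33 and -0.41 at the other 2 (0.31, 0.11 and -0.02 with the block).

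Scd1, a stearoyl-CoA desaturase that makes oleate, read 9.89, 10.11, 10.03 and 8.40 in MT, 8.50, 9.53, 9.04 and 11.13 in KO and 9.02, 8.60, 8.78 and 8.38 in WT tumors at its brightest probe set. KO4 was the highest tumor, and MT minus WT was 0.92 (SE 0.52, adjusted p = 0.356, and -0.29 with the block). At 1415965_at it read 7.87, 8.20, 7.98 and 6.39 in MT, 6.16, 6.55, 6.47 and 7.45 in KO and 5.68, 5.47, 5.55 and 6.42 in WT tumors. MT1, MT2 and MT3 were above all other tumors and MT4 level with WT4, and MT minus WT was 1.83, a ratio of 3.55 (SE 0.40, adjusted p = 0.0653), 0.61 with the block and 2.24 (adjusted p = 0.00869) without MT4.

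The 3 probe sets of Scd2, a second stearoyl-CoA desaturase, disagreed. At the brightest, KO minus WT was 0.02 and MT minus KO -0.20 (-0.54 with the block). At 1415823_at the values were 11.39, 10.99, 11.40 and 10.22 in MT, 10.15, 9.85, 10.37 and 9.88 in KO and 10.69, 10.67, 11.07 and 10.87 in WT tumors. All KO tumors were below all WT tumors, with KO minus WT at -0.76 (SE 0.24, adjusted p = 0.0888) and MT minus KO at 0.94 (adjusted p = 0.263, and 0.16 with the block). At 1415824_at they were 10.40, 10.16, 10.49 and 9.04 in MT, 8.48, 7.70, 8.53 and 7.56 in KO and 8.55, 8.77, 9.08 and 10.05 in WT tumors. MT minus KO, with no overlap, was 1.95, a ratio of 3.88 and the largest difference of any member in this comparison (SE 0.39, adjusted p = 0.158), 0.97 with the block and 2.28 (adjusted p = 0.0221) without MT4. Of the 21 members with several probe sets, 8 had differences of both signs in KO minus WT, 5 in MT minus WT and 10 in MT minus KO, and which transcript each probe set reads was not analysed here.

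Of 37 other genes of lipid metabolism, 29 were measured, by 56 probe sets, of which 1 was called higher and 2 lower in KO minus WT and 0 in the comparisons with MT (limma). Ggps1, which makes the longer isoprenoid geranylgeranyl pyrophosphate from the product of Fdps, read 7.71, 7.24, 7.35 and 7.66 in MT, 8.07, 8.20, 8.11 and 7.66 in KO and 7.45, 6.67, 7.06 and 7.58 in WT tumors. It rose in KO tumors by 0.82 (SE 0.21, adjusted p = 0.0468), a call that is lost with the block (adjusted p = 0.0526), and every KO tumor was above every WT tumor. Nr1h3, the sterol-sensing receptor LXR alpha, fell by 0.63 (adjusted p = 0.0199) in KO tumors, at 5.89 to 5.95 in MT, 5.79 to 6.12 in KO and 6.27 to 6.77 in WT tumors. Dgat2, which makes triglyceride, fell by 0.51 (adjusted p = 0.0198), at 6.15 to 6.30 in MT, 6.05 to 6.33 in KO and 6.54 to 6.80 in WT tumors. At both genes every MT tumor also lay below every WT tumor. The called macrophage, T cell and endothelial genes were also lower in KO tumors, and C1qb was called lower in MT tumors too, though not with the block. The part of these marker genes in the differences was not tested. The medians of the 29 genes were -0.05 in KO minus WT, -0.08 in MT minus WT and -0.04 in MT minus KO.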

How the data were processed

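RNA from 12 salivary tumors, 4 per p53 genotype, was hybridized to Affymetrix Mouse Genome arrays, 1 per tumor. The deposited table holds log2 values, which per the study's methods the authors made with RMA (background correction, quantile normalization, median polish). In the submitters' notes both RMA and MAS5 appear, with no version given. No further scaling was applied. The table has 22690 rows, of which 64 controls were dropped and 22626 entered the tests, 20380 with a single gene symbol in the platform annotation, 691 with several and 1555 with none. Members were matched by single symbol, and the members, lists and alternatives were chosen with earlier results of these data known.

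Group means over all 12 tumors were compared with limma 3.58.1 in R 4.3.3 (2-sided, 9 residual degrees of freedom before moderation), with p-values adjusted after Benjamini-Hochberg over the 22626 rows. No filter on low values was used, and 52 of the 64 member probe sets passed the dim filter tried as an alternative. The labels do not say that replicates are separate mice, so p-values measure the spread between these samples. The precision is limited by the number of arrays. The text names every member called in any comparison, in each place of the pathway the members with the largest KO minus WT and MT minus KO difference, and Srebf1, Srebf2 and Scap. All other members are named for their place in the pathway or because their values stood out, and were chosen after values were seen. Fits were tested on simulated data. Alternatives were a dim filter, array centring, cyclic loess, 8-tumor fits, a mean-variance trend, array weights, blocks, SAM over 70 assignments, the methods' t-test, a looser threshold, 1 probe set per gene and leaving out each tumor. Chromosomes and promoters came from RefSeq tables of GRCm38.p6. Figures and counts used Python 3.11.15 with pandas 2.3.3 and matplotlib 3.10.9.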

Additional observations from a re-analysis of the deposited data

Results flagged for a closer look

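In 13 of 192 groups of 4 tumors, 64 probe sets in 3 genotypes, 1 tumor stood so far from the other 3 that its gap to the nearest exceeded, as a share of the group's range, Dixon's 95% critical value for 4 values, and chance alone gives about 1 in 20. KO1 was the tumor in 5 of these, in each case higher than the other KO tumors: Hmgcs1 1433444_at at 10.01 (others 9.48 to 9.52), Hsd17b7 1417871_at at 7.69 (6.87 to 6.94), Nsdhl at 9.30 (8.38 to 8.53), Scap at 9.81 (9.50 to 9.54) and Me1 1416632_at at 11.01 (10.21 to 10.33). MT4 was the tumor in 3, in each case lower than the other MT tumors: Dhcr7 at 8.57 (9.46 to 9.64), Srebf2 1426744_at at 8.45 (9.64 to 9.88) and Scd1 1415964_at at 8.40 (9.89 to 10.11). WT3 was high for Lss 1426913_at at 6.14 (5.04 to 5.22) and Acly 1451666_at at 10.99 (10.60 to 10.65), and KO4 was low for Acly 1425326_at at 8.23 (8.79 to 8.90). For Acaca, MT1 was high at 6.47 (6.08 to 6.11) among MT tumors and WT4 high at 6.47 (5.79 to 5.89) among WT tumors. What sets these tumors apart was not tested.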

How the results depend on the processing

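Few tumors and arrays that differ in their controls limit these values. In KO minus WT the 0 members called higher became 1 at an adjusted p under 0.10 and 2 with array weights. The 1 called lower became 2 after centring, cyclic loess, the block for the poly-A split and SAM, 4 at an adjusted p under 0.10 and 7 with array weights, and 0 in the 8-tumor fit, with the methods' t-test at 5%, with 1 probe set per gene (the called Mvk probe set is not its gene's brightest) and without MT1, MT2 and MT3. That last setting was chosen after seeing the data. In MT minus WT the members called higher numbered 3 with the dim filter (78 higher of 12197 probe sets on the whole array) and 3 at an adjusted p under 0.10, 10 with array weights and 1 by SAM, and those called lower 7 with array weights and 1 by SAM. Array weights called 1 member higher in MT minus KO and moved the median there to 0.27. With array weights, probe sets called over the whole array numbered 1488 higher and 1792 lower in KO minus WT, 2495 and 2478 in MT minus WT and 24 and 20 in MT minus KO; the cause was not tested.

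Leaving out 1 tumor at a time gave 0 to 2 members higher and 0 to 3 lower in KO minus WT, 0 to 5 higher and 0 lower in MT minus WT, and 0 to 2 higher and 0 lower in MT minus KO. The 5 higher in MT minus WT and the 2 in MT minus KO came without MT4, where 399 probe sets were called higher and 402 lower in MT minus WT and 112 and 123 in MT minus KO over the whole array. Medians ranged from 0.01 to 0.14, -0.03 to 0.18 and 0.02 to 0.23. Single probe sets were followed for a chosen list of 31 differences, each with an unadjusted p under 0.10 (limma). The list covers only part of the named probe sets. Other named differences under that limit, such as Ebp in MT minus WT and Msmo1 in KO minus WT, were not in it. Among these 31, with the block for the poly-A split, MT minus WT reversed for Srebf1 (-0.60), Srebf2 (-0.35) and Scd2 1415824_at (-0.07). MT minus KO reversed for Scd1 1415965_at (-0.27). The same differences reversed without MT1, MT2 and MT3. Over all 64 member probe sets the block changed the sign of 26 in MT minus WT (40.6%, against 27.7% of all probe sets) and 28 in MT minus KO (43.8%, against 34.5%). Of 760 values for the 31 differences, 8 reversed, 6 lost and 50 gained a call.

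Deviations of same-numbered tumors correlated at 0.00226 to 0.335 over 12 pairs, and above 0.1 in 6 of them. Tumors with different numbers were not set beside these, so the values cannot decide whether replicate numbers pair the tumors. A replicate block gave 2 members higher and 2 lower in KO minus WT and 2 higher in MT minus WT.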
